A study of Arabidopsis thaliana with 67 samples.

Results

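The comparison described here asks what the loss of ARGONAUTE5 (AGO5) adds when ARGONAUTE9 (AGO9) is already mutated, in nuclei sorted as shoot stem cells. It used 14 of the 67 libraries of the series, 7 labelled ago59_cherry (replicates 1 to 6 and 8) and 7 labelled ago9_cherry (replicates 1 and 3 to 8). They were chosen by their labels alone, and no wild-type library entered this contrast. The name ago59 is read as the ago5 ago9 double mutant. Both groups therefore carry the ago9 mutation, and ago59 carries an ago5 mutation besides. The labels name neither the alleles nor the promoter that drives the mCherry reporter, and they do not say whether replicates came from separate plants. The p-values thus measure the spread between these libraries, which may be technical. The plants were Arabidopsis thaliana of ecotype Col-0. For the nuclei they were grown on soil under long days (16 h light, 8 h dark), and shoot apices were taken at 7 d. Each library was made by Smart-seq3 from 100 sorted nuclei, as the labels give it. Smart-seq3 is a full-length method for very small amounts of RNA. The other groups used below are the same genotypes in nuclei sorted by the DNA stain DAPI (3 ago59 and 4 ago9 libraries, the non-stem group) and mCherry-sorted nuclei of ago5 (8 libraries) and of the wild type (5 libraries). For a check of AGO5 alone, 3 ago59 and 3 ago9 sperm libraries from plants of 35 d were used as well.

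ARGONAUTE proteins bind small RNAs and are guided by them to matching transcripts or to chromatin. In plants AGO9 belongs to the clade of AGO4 and AGO6, which acts in RNA-directed DNA methylation, whereas AGO5 belongs to the clade of AGO1 and AGO10. Both are best known from reproductive tissue and are also transcribed in the shoot meristem. That meristem holds its stem cells at the tip, where they secrete the peptide CLAVATA3 (CLV3), and the leaves that form on its flanks carry out photosynthesis.

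The level of a feature is given as CPM, its counts scaled to the total of its library and not to gene length, so that levels are compared between libraries and not between genes, and changes are log2 fold changes of ago59 over ago9 with their standard error (SE). Features were called changed at a Benjamini-Hochberg adjusted p under 0.05 in edgeR's quasi-likelihood test, from which every adjusted p of a gene or transposable element below comes. SD is the standard deviation between libraries.

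The 14 libraries held 1.411 M to 5.748 M counts in ago59 and 1.426 M to 3.385 M in ago9. CLV3 stood at 6.96 to 71.9 CPM in the ago59 libraries and at 8.58 to 44.2 CPM in the ago9 libraries, against at most 1.43 CPM in non-stem nuclei. SHOOT MERISTEMLESS (STM), a homeobox gene that keeps meristem cells undifferentiated, ranged from 41.8 to 164 CPM in the 14 libraries and reached at most 14.7 CPM in non-stem nuclei. The stem-cell label was thus matched by these markers. The same libraries also held transcripts of leaf photosynthesis genes, at levels near those of non-stem nuclei. Light-harvesting genes summed to 42500 to 50100 CPM in ago59 stem-cell and 45600 to 52300 CPM in ago59 non-stem nuclei. In ago9 the sums were 31400 to 42600 and 37500 to 43300 CPM. Rubisco small-subunit genes summed to 14100 to 16000 and 14700 to 17100 CPM in ago59, and to 20800 to 25100 and 23800 to 27600 CPM in ago9. From which cells these transcripts came was not tested. Genes of the plastid and mitochondrial genomes took 13.5% to 20.15% of the counts in ago59 and 13.6% to 18.8% in ago9. Of the libraries, 3 stood apart on the first 3 principal components, namely ago59 replicates 6 and 8 and ago9 replicate 6, and calls of the genes named by rule that were lost without them are marked as such.

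Sequences upstream of 3 genes are shown first, because the cold-response and Rubisco genes below are known for elements in this window. They are the 250 bases before the annotated start in RefSeq's TAIR10.1 assembly, 5′ to 3′ on the gene's own strand, and were chosen after the values were seen. Capitals mark the core of the CRT/DRE (CCGAC), to which the CBF factors bind, the G-box (CACGTG), the I-box (GATAAG) and the rapid stress response element RSRE (CGCGTT), on either strand, and none of the marked motifs overlap. LTI78, also called RD29A, is a classical CBF target, and its window lies at chr5:21240467-21240716 on the plus strand. The window of CBF2, the cold-response transcription factor, lies at chr4:13016236-13016485 on the minus strand. That of RBCS2B, a gene for the small subunit of Rubisco, lies at chr5:15382072-15382321 on the minus strand.
LTI78: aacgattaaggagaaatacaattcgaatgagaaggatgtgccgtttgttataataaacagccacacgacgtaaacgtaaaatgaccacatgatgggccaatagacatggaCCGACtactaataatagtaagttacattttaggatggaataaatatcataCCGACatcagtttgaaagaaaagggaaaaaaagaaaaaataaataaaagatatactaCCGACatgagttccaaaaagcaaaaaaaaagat
CBF2: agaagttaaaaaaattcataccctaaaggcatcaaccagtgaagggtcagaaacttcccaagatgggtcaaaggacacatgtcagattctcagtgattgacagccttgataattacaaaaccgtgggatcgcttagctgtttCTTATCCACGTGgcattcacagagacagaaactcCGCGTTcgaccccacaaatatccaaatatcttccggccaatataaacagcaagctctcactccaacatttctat
RBCS2B: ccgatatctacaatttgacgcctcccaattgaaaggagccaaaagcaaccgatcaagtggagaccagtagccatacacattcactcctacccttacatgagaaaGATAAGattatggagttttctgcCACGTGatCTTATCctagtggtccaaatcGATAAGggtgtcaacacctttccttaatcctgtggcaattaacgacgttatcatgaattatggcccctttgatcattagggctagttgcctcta
The LTI78 window holds 3 CRT/DRE cores, which begin 140, 90 and 33 bases before the start. In the CBF2 window an I-box at 108 bases is followed by a G-box at 102 bases and an RSRE at 74 bases. RBCS2B has a G-box at 123 bases and I-boxes at 146, 115 and 94 bases. The 3 windows are not typical of the called genes on these lists. RBCS3B, RBCS1B, RBCS1A, CBF1 and ERD10, also called lower, had none of the marked motifs in the same window.

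Between ago59 and ago9 stem-cell nuclei, 77 of 16018 features tested were called, which is 0.481% of them. Of these, 27 were higher in ago59 (0.169%) and 50 lower (0.312%), and 1119 features had an unadjusted p under 0.05. The median log2 change of all features tested was 0.0108. For 46 of the 77, the CPM of the 7 ago59 and 7 ago9 libraries did not overlap, while such a gap was found in 72 of all 16018 features tested (0.449%). The smallest p-values belonged to CT-BMY, a chloroplast starch-degrading enzyme, and the Rubisco small-subunit gene RBCS3B among the lower features, and to AT4G36850 and the antenna gene LHB1B1 among the higher ones. A biological coefficient of variation of 0.581 limits what could be called at this depth. Of the 77, 47 were called in every fit that left out 1 library. Only 26 were called in every alternative that held them, as listed in the section on processing. None changed sign, but these fits reuse the libraries that gave the calls, so a kept sign is no separate evidence.

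**Figure D1:**
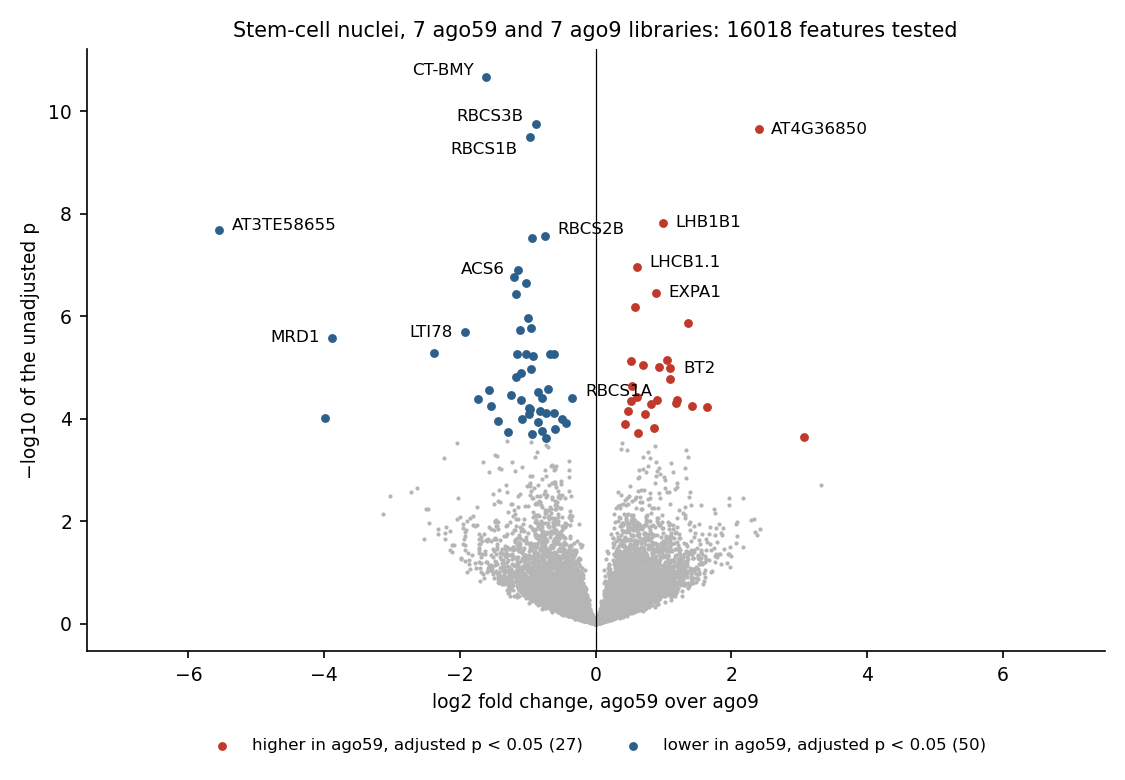
Each point is 1 of the 16018 features tested in stem-cell nuclei, with the log2 fold change of ago59 over ago9 on the horizontal axis and −log10 of the unadjusted p on the vertical axis. Red points are the 27 features called higher and blue points the 50 called lower in ago59, and CT-BMY has the smallest p.

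The targeted gene itself was low and variable. AGO5 stood at 0.675 to 16.6 CPM in ago59 stem-cell nuclei, with a median of 8.68, and at 2.81 to 40.9 CPM in ago9, with a median of 16.4. The groups overlapped, and the log2 change of −1.21 ± 0.65 (SE) did not pass the test (adjusted p = 0.781). In sperm libraries of the same genotypes, where AGO5 is more abundant, it was at 2.301, 2.881 and 3.908 CPM in ago59 and at 32.1, 39.1 and 41.7 CPM in ago9. The sperm values separate the labels, whereas the stem-cell values alone do not. AGO9, mutated in both groups, was at 13.0 ± 9.60 CPM (SD, n = 7) in ago59 and 11.9 ± 14.7 CPM in ago9, against 86.6 ± 40.2 CPM (n = 5) in wild-type stem-cell nuclei. None of the 8 other AGO genes was called, of which AGO3 and AT5G21030 were too low to be tested. AGO1, the main microRNA effector, was at 133 and 134 CPM in ago59 and ago9, and AGO4, the main effector of RNA-directed DNA methylation, at 125 and 105 CPM. The 10 annotated genes on each side of AGO5 were examined as a positional list, and 0 of the 13 that could be tested were called by edgeR or DESeq2 (1 at an unadjusted p under 0.05), with a median log2 change of 0.15.

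The clearest fall was in CT-BMY (AT4G17090), the chloroplast β-amylase that releases maltose from leaf starch at night. In ago59 its level ran from 169 to 277 CPM with a median of 231, and in ago9 from 499 to 791 CPM with a median of 675. No ago59 library reached the lowest ago9 library. Its mean fell from 675.5 ± 100 to 223 ± 41.1 CPM (SD, n = 7 each), a log2 change of −1.61 ± 0.14 (SE, adjusted p = 3.345e-07). The annotation places AT4G17085 and AT4G06665 over the same locus, and the strand handling of the counts is not stated, so reads from these genes cannot be told apart. In edgeR CT-BMY was the single called member of 16 tested starch-breakdown genes, whose median log2 change was −0.079, or 0.0839 without the 3 libraries that stood apart. DESeq2 called 2 lower and 0 higher. A second β-amylase gene, BMY7, was at 103 CPM in ago59 and 167 CPM in ago9 without passing the test (adjusted p = 0.213). GBSS1, the granule-bound starch synthase that makes amylose, also fell, from 135 ± 31.3 to 76.6 ± 10.6 CPM (log2 −0.82, adjusted p = 0.0198). It is outside the naming rule, was picked after its values were seen, and was called in 10 of the 14 fits that left out 1 library.

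All 4 members of the list of Rubisco small-subunit genes fell and were called. Without the 3 libraries that stood apart all 4 still fell, and 3 were called. Rubisco is the enzyme that fixes CO2, and its small subunits are encoded in the nucleus by this family. RBCS3B ran from 3191 to 3982 CPM in ago59 (median 3548) and from 5572 to 7255 CPM in ago9 (median 6446). RBCS1B ran from 1074 to 1351 CPM in ago59 (median 1338) and from 2273 to 3328 CPM in ago9 (median 2465). RBCS2B ran from 1319 to 1702 CPM in ago59 (median 1423) and from 2042 to 2720 CPM in ago9 (median 2440). In each of these 3 genes the ago59 libraries lay below all ago9 libraries. Log2 changes were −0.88 ± 0.09 (SE, adjusted p = 1.186e-06) for RBCS3B, −0.97 ± 0.10 for RBCS1B and −0.74 ± 0.09 for RBCS2B. These genes lie in a row on chromosome 5, and near-identical copies like them can exchange reads in estimated counts, so the split between them is uncertain. RBCS1A, on chromosome 1, changed least, from 9921 to 12360 CPM in ago9 to 8124 to 9379 CPM in ago59 (log2 −0.34 ± 0.07, adjusted p = 0.0142), and its call was lost without the 3 libraries that stood apart (adjusted p = 0.105). Summed over the 4 genes, the level was 14100 to 16000 CPM in ago59 and 20800 to 25100 CPM in ago9. The sum does not depend on how reads were divided among copies, and it too left a gap between the groups.

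Antenna genes moved the other way. The light-harvesting complex (LHC) proteins bind chlorophyll and pass light energy to the photosystems. Of 21 LHC genes tested, 4 rose and 0 fell in edgeR, and 17 had a positive log2 change, with a median of 0.22. DESeq2, and edgeR without the 3 libraries that stood apart, each called 6 higher and 0 lower. LHB1B1, one of the copies for the main antenna protein of photosystem II, ran from 1593 to 1990 CPM in ago59 (median 1737) and from 691 to 1246 CPM in ago9 (median 793). It rose by 0.98 ± 0.12 on the log2 scale (SE, adjusted p = 4.78e-05). LHCB1.1 rose from 4054 ± 484 to 6167 ± 299 CPM (log2 0.61 ± 0.08, adjusted p = 0.000193), with no overlap between groups. LHCA4, an antenna protein of photosystem I, rose from 2245 ± 315 to 3339 ± 218 CPM (log2 0.58 ± 0.09), also without overlap, and LHCB1.2 rose by 0.53 ± 0.10 with overlapping libraries. The copies LHB1B2 and LHCB1.3 had log2 changes of 0.39 and 0.37 and adjusted p-values of 0.0593 and 0.0738. By contrast LHCA3, LHCB4.1 and LHCB6 had log2 changes between −0.02 and 0.00. Summed over the list, LHC transcripts came to 42500 to 50100 CPM in ago59 and 31400 to 42600 CPM in ago9, so that the lowest ago59 library was just under the highest ago9 library. The LHCB1 copies are also near-identical, and their single values carry the same uncertainty as the RBCS genes.

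The other photosynthesis genes gave a mixed picture. Of 18 tested genes of the Calvin cycle, which builds sugar from fixed CO2, 2 rose and 0 fell in edgeR, with a median log2 change of 0.052. These counts depended on the setting, with 4 higher and 1 lower in DESeq2 and 1 higher and 0 lower without the 3 libraries that stood apart. The 2 that rose were GAPB and GAPA, subunits of the plastid glyceraldehyde-3-phosphate dehydrogenase. GAPB rose from 609 ± 77.3 to 873 ± 116 CPM (log2 0.52 ± 0.10, adjusted p = 0.0145), and GAPA from 872.5 ± 121 to 1217 ± 106 CPM (log2 0.48 ± 0.10, adjusted p = 0.0198). GAPB was not called without the libraries that stood apart (adjusted p = 0.0577), and GAPA was called in 12 of the 14 fits that left out 1 library (adjusted p = 0.0628 without ago59 replicate 3). RCA, which encodes the activase that keeps Rubisco active, was at 2440 CPM in ago59 and 2155 CPM in ago9 and was not called (adjusted p = 0.696). PSBP-1, a protein of the oxygen-evolving complex of photosystem II, fell from 1564 ± 280 to 1026 ± 110 CPM (log2 −0.61, adjusted p = 0.00341) and is named after its values were seen. The loci of LHCA4, GAPA, PSBP-1, UBQ14 and DELTA-TIP each overlap another annotated gene, so their reads cannot be fully told apart.

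On the list of the cold and drought response, edgeR called 4 of 20 tested genes lower and 0 higher, and DESeq2 5 lower and 1 higher. CBF1, CBF2 and CBF3 encode AP2-type transcription factors that bind the CRT/DRE in cold-induced genes. CBF2 ran from 64.9 to 135 CPM in ago59 (median 97.5) and from 159 to 286 CPM in ago9 (median 202). The groups did not overlap, and CBF2 fell by 1.12 ± 0.18 on the log2 scale (SE, adjusted p = 0.00156). CBF1, further along the same cluster on chromosome 4, fell from 78.4 ± 11.3 to 37.4 ± 15.0 CPM (log2 −1.08 ± 0.23, adjusted p = 0.0251). This call held in 5 of the 14 fits that left out 1 library, with a highest adjusted p of 0.0789, and was lost without the 3 libraries that stood apart (adjusted p = 0.0601). CBF3 had 15.1 ± 13.6 against 63.5 ± 23.0 CPM and log2 −2.05 ± 0.49, and missed the threshold (adjusted p = 0.0600).

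Among the genes that such factors act on, LTI78, whose upstream sequence is printed above, ran from 8.52 to 17.2 CPM in ago59 (median 13.2) and from 25.2 to 67.6 CPM in ago9 (median 57.7). It fell by 1.93 ± 0.31 on the log2 scale (SE, adjusted p = 0.00165), with no overlap. ERD10, a dehydrin that protects cells against dehydration, ran from 559 to 898 CPM in ago59 (median 725) and from 1012 to 1372 CPM in ago9 (median 1104). Its log2 change was −0.68 ± 0.12 (adjusted p = 0.00341), again without overlap. Over the whole list, 17 of 20 tested members had a negative log2 change, and the median was −0.52. Without the 3 libraries that stood apart, 3 were called lower and 0 higher. COR15A, COR15B and KIN2 had log2 changes of −1.105, −1.93 and −0.60 with adjusted p-values of 0.512, 0.674 and 0.363. RD26, a drought-induced NAC transcription factor, had 38.8 CPM in ago59 and 18.5 CPM in ago9 (log2 1.07, adjusted p = 0.254), the opposite direction.

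**Figure D2:**
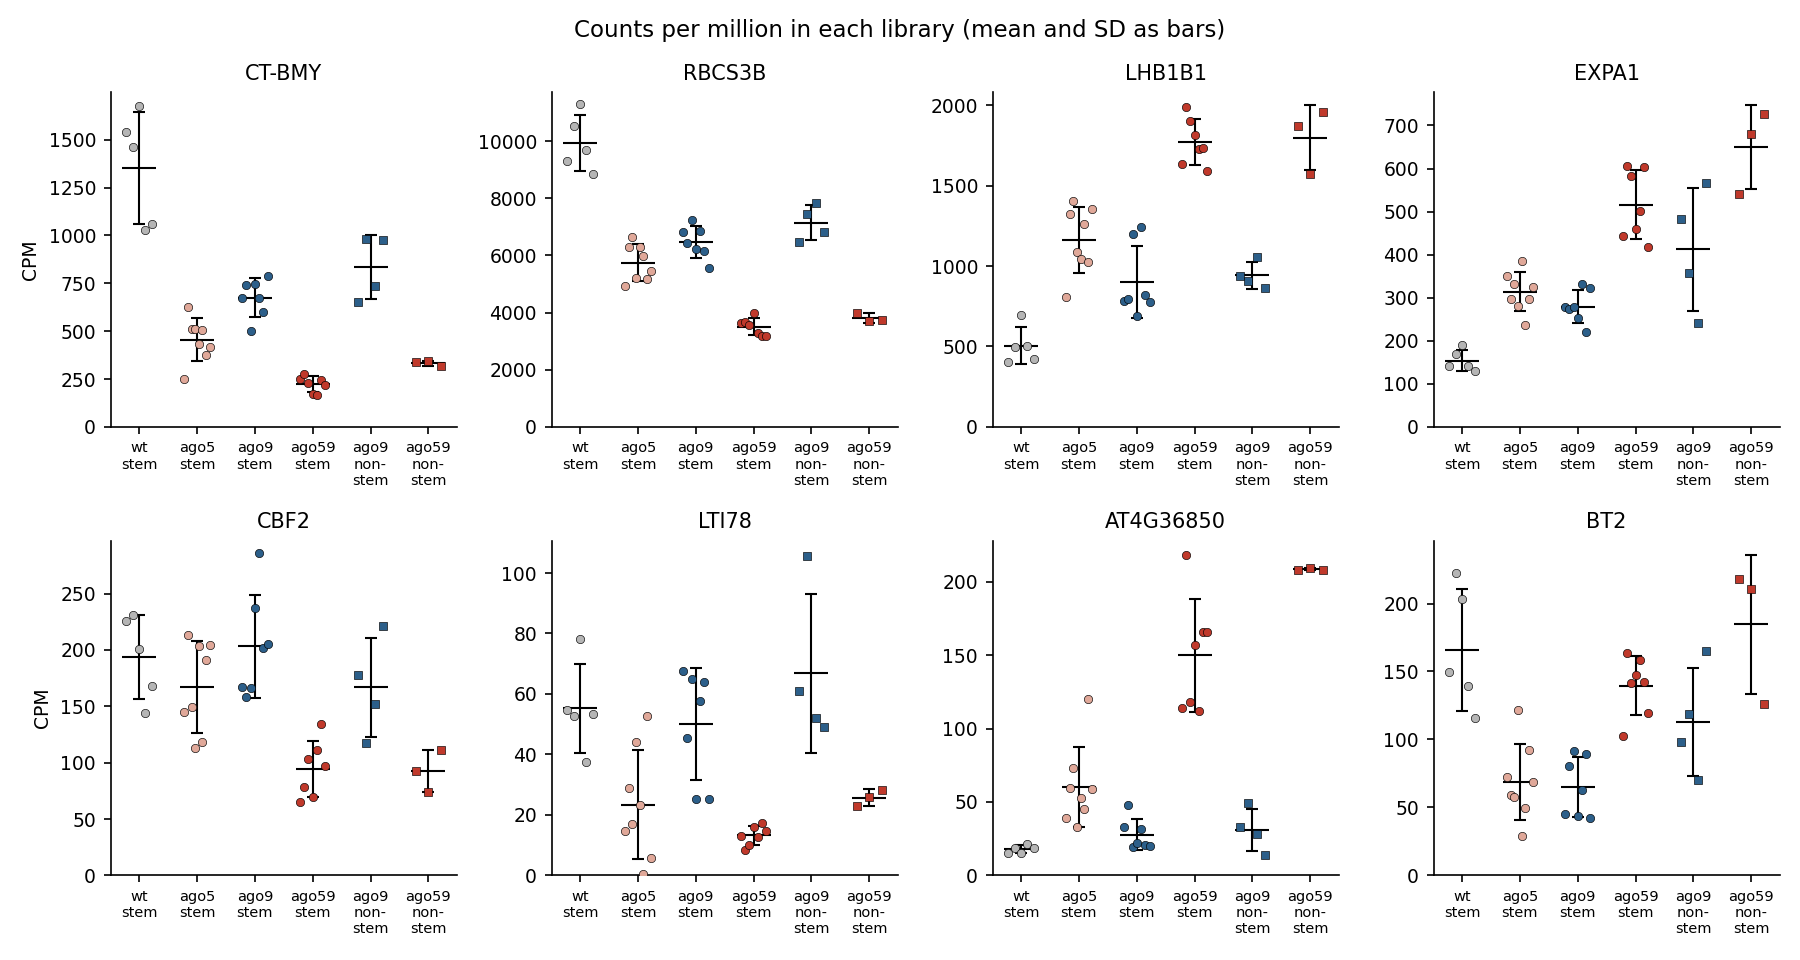
CPM of 8 genes in every library of 6 groups, with circles for mCherry-sorted stem-cell nuclei and squares for non-stem nuclei. Horizontal bars are means and error bars SD. CT-BMY, RBCS3B, CBF2 and LTI78 are lower, and LHB1B1, EXPA1, AT4G36850 and BT2 higher, in all 7 ago59 than in all 7 ago9 stem-cell libraries.

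ACS6, an enzyme that makes the precursor of ethylene and an early wound-response gene, ran from 121 to 233 CPM in ago59 (median 154) and from 278 to 511 CPM in ago9 (median 374), a log2 change of −1.15 ± 0.16 (SE, adjusted p = 0.000199). The groups did not overlap. It was the single called gene of 15 tested on the wound and touch list (median log2 −0.20), where ZAT12 and TCH4 had log2 changes of −0.49 each without passing the test. HSFC1, a class C heat-shock factor, fell from 416 ± 70.8 to 179.5 ± 44.5 CPM (log2 −1.21 ± 0.17, adjusted p = 0.000251), while 0 of 9 tested members of the heat-shock list were called and HSP70-1, the abundant cytosolic chaperone, was at 1596 CPM in ago59 and 1442 CPM in ago9. The locus of HSFC1 overlaps that of AT3G24518. ENODL2, an early nodulin-like protein, fell from 404 ± 66.2 to 195.5 ± 36.2 CPM (log2 −1.03 ± 0.15).

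UBQ11 and UBQ14 are polyubiquitin genes, which encode ubiquitin as tandem repeats. UBQ11 ran from 674 to 877 CPM in ago59 (median 764) and from 1117 to 2017 CPM in ago9 (median 1399), with a log2 change of −0.94 ± 0.12 (SE, adjusted p = 5.87e-05). UBQ14 fell from 312 ± 71.2 to 136 ± 28.2 CPM (log2 −1.18 ± 0.17, adjusted p = 0.00042). UBQ10, picked after its values were seen, fell by 0.50 on the log2 scale (adjusted p = 0.0252, called in 7 of the 14 fits that left out 1 library). For each of the 3 genes the groups did not overlap, but the repeats are shared among family members and reads may be split uncertainly.

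The largest rise among the genes named by the rule was in AT4G36850. Its level ran from 112 to 218 CPM in ago59 (median 157) and from 19.6 to 47.9 CPM in ago9 (median 21.7). Every ago59 library exceeded every ago9 library by a wide margin, and the log2 change was 2.40 ± 0.24 (SE, adjusted p = 1.186e-06). The annotation used here gives this gene no symbol. EXPA1, an expansin that loosens cell walls, ran from 418 to 606 CPM in ago59 (median 500) and from 220 to 332 CPM in ago9 (median 277), and rose by 0.88 ± 0.13 (adjusted p = 0.00042). It was the 1 called gene of 13 tested expansins, whose median log2 change was −0.22. DELTA-TIP, a water channel of the vacuole membrane, rose from 246 ± 18.5 to 401 ± 64.3 CPM (log2 0.69 ± 0.12, adjusted p = 0.00483, or 0.0531 without the libraries that stood apart). The transcription factor RAV2 rose from 74.7 ± 10.9 to 142 ± 28.1 CPM (log2 0.93 ± 0.17, adjusted p = 0.00507). AT1G35516, a gene without a symbol here whose locus overlaps AT1G35515, rose from 29.2 ± 5.93 to 75.8 ± 12.1 CPM (log2 1.37 ± 0.22, adjusted p = 0.0013).

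BT2, a BTB-TAZ domain protein that responds to sugar and nitrogen supply, ran from 102 to 164 CPM in ago59 (median 143) and from 42.2 to 91.7 CPM in ago9 (median 62.6), without overlap. It rose by 1.101 ± 0.20 on the log2 scale (SE, adjusted p = 0.0052). On the list of genes induced by darkness and sugar starvation it was the 1 call of 13 tested in edgeR, and the median log2 change was 0.44. DESeq2 called 3 higher and 0 lower on that list. DIN6, an asparagine synthetase induced in the dark, had 51.4 against 19.8 CPM (adjusted p = 0.0961), and the sugar transporter gene STP1 141 against 76.0 CPM (adjusted p = 0.113). Of the clock lists, 0 of 14 tested core genes were called in edgeR (2 at an unadjusted p under 0.05) and 1 in DESeq2. LHY, a morning transcription factor of the core clock, was at 313 CPM in ago59 and 449 CPM in ago9 (adjusted p = 0.198), its partner CCA1 at 314 and 366 CPM, and LNK2 at 1929 and 1581 CPM. RVE2, a MYB-like factor related to CCA1 and placed with clock outputs, fell from 132 ± 27.4 to 61.7 ± 22.5 CPM (log2 −1.10 ± 0.20, adjusted p = 0.00609). It was the 1 call of 9 tested there in edgeR, while DESeq2 called 2 lower and 0 higher.

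Further called genes, picked after their values were seen, show the range of functions. MRD1 was at 0 to 12.3 CPM in ago59 (median 1.42) and 26.9 to 76.2 CPM in ago9 (median 50.5), a log2 change of −3.88 ± 0.64 (SE, adjusted p = 0.002), and its locus overlaps AT1G07887 and AT1G53490. PAP17, a purple acid phosphatase, fell from 34.1 ± 8.37 to 6.52 ± 3.46 CPM (log2 −2.38, adjusted p = 0.00341), and AT3G17800, whose locus it overlaps, fell by 0.99. VTC2, which catalyses a committed step of vitamin C synthesis, fell from 173 ± 28.7 to 85.5 ± 25.6 CPM (log2 −1.02). NIA1, a nitrate reductase, rose from 48.45 ± 13.7 to 104 ± 23.7 CPM (log2 1.099, adjusted p = 0.00755) and ATBETAFRUCT4, a vacuolar invertase, from 46.6 ± 17.58 to 107 ± 28.0 CPM (log2 1.18, adjusted p = 0.0155). CHLM, an enzyme of chlorophyll synthesis, rose by 0.63 (adjusted p = 0.0403), a call that held in 3 of the 14 fits that left out 1 library.

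**Figure D3:**
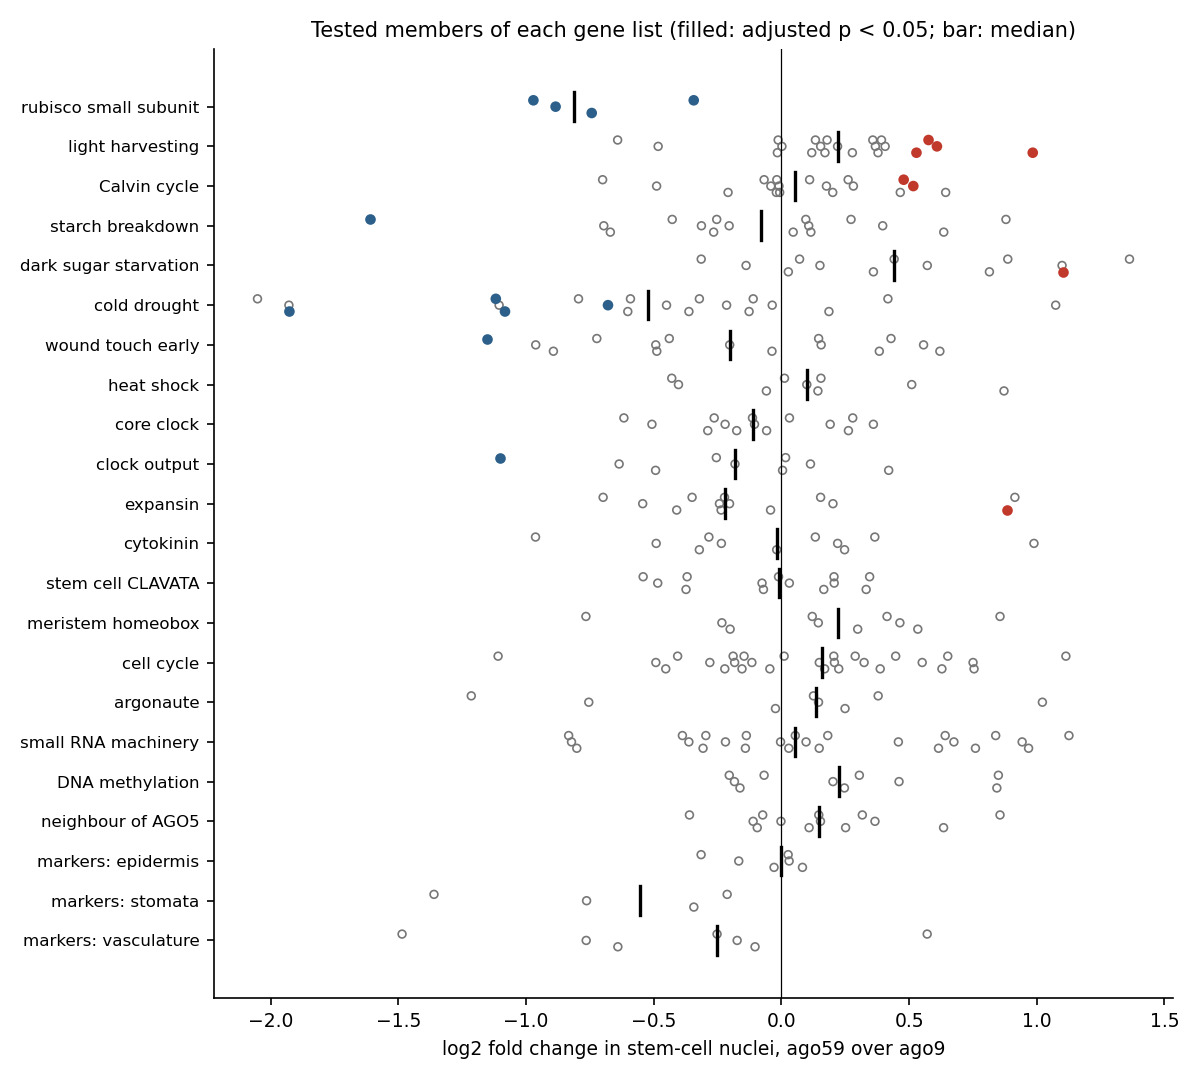
Log2 fold change of ago59 over ago9 in stem-cell nuclei for each tested member of 22 gene lists. Filled points were called (red higher, blue lower), open points were not, and black bars are list medians. All 4 Rubisco small-subunit genes lie left of 0, and no member is called on the lists for meristem regulators, cell cycle, small RNA machinery and DNA methylation.

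No member of the lists for meristem identity was called. On the CLAVATA and stem-cell list, 0 of 13 tested genes passed in edgeR or in DESeq2, with 1 at an unadjusted p under 0.05 and a median log2 change of −0.0111. CLV3 was at 29.7 CPM in ago59 and 23.3 CPM in ago9 (log2 0.35 ± 0.44, SE), and its receptor gene CLV1 at 47.0 and 47.5 CPM. Among 10 tested homeobox genes of the meristem 0 were called by either tool (2 at an unadjusted p under 0.05), with STM at 70.9 and 53.1 CPM and KNAT6 at 151 and 123 CPM. The cell-cycle list had 0 calls of 28 tested by either tool (2 at an unadjusted p under 0.05), with CYCD1;1 at 92.1 and 92.2 CPM, and the cytokinin list 0 of 11 (0 at an unadjusted p under 0.05, or 3 without the 3 libraries that stood apart), with the response regulator ARR9 at 169 and 199 CPM. A p that misses the threshold does not show equal levels. With SEs of 0.23 to 0.96 on the log2 scale for the tested CLAVATA genes, moderate changes would not have been called.

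The small RNA pathway itself was not called either. Of 25 tested genes for the production and use of small RNAs, 0 passed in edgeR or DESeq2 and 0 had an unadjusted p under 0.05 in edgeR, with a median log2 change of 0.055, or −0.142 without the 3 libraries that stood apart. DCL1, the microRNA-processing enzyme, was at 126 and 156 CPM in ago59 and ago9, and SPT5L, an AGO-binding factor of RNA-directed DNA methylation, at 86.5 and 77.9 CPM. For DNA methylation and demethylation, 0 of 10 were called by either tool (2 at an unadjusted p under 0.05), with a median of 0.22. The demethylase DME was at 139.5 and 101 CPM (adjusted p = 0.468), the remodeller DDM1 at 44.1 and 24.9 CPM (adjusted p = 0.536) and the maintenance methyltransferase MET1 at 55.6 and 58.6 CPM.

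Transposable elements (TEs), the usual targets of the AGO9 clade, took 1.26% ± 0.142 of the counts in ago59 and 1.32% ± 0.106 in ago9 (SD, n = 7 each). The difference was smaller than the spread between libraries (exact two-sided permutation test, p = 0.358, adjusted over 2 shares p = 0.5425). Of 391 TE rows tested, 1 was called higher and 3 lower in edgeR. DESeq2 called 2 higher and 1 lower, and edgeR without the 3 libraries that stood apart 0 higher and 2 lower. AT3TE58655 was at 0 to 1.70 CPM in ago59 (median 0.348) and at 13.3 to 39.0 CPM in ago9 (median 30.7), a log2 change of −5.54 ± 0.69 (SE, adjusted p = 5.503e-05). It was called in all 14 fits that left out 1 library and in 7 of 8 other alternatives, but not in DESeq2. It was at 0.663 ± 0.385 CPM in wild-type and 2.34 ± 2.97 CPM in ago5 nuclei, so that ago9 was the high group of the 4. AT4TE69050 was at 0.613 ± 0.730 CPM in ago59 and 11.4 ± 6.91 CPM in ago9 (log2 −3.98, adjusted p = 0.0249), AT5TE40480 at 26.75 ± 12.9 and 80.5 ± 50.3 CPM (log2 −1.58), and AT4TE42860 at 57.65 ± 28.0 and 18.5 ± 10.0 CPM (log2 1.64, adjusted p = 0.0175). These 3 were picked after their values were seen, and in the 14 fits that left out 1 library they were called 6, 13 and 11 times in that order.

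Genes of the plastid and mitochondrial genomes together took 17.3% ± 2.47 of the counts in ago59 and 16.5% ± 2.08 in ago9 (SD, n = 7 each; exact two-sided permutation test, p = 0.5425). Mitochondrial genes alone, a split added after seeing the data, took 0.580% ± 0.0731 in ago59 and 0.432% ± 0.0512 in ago9 (exact two-sided permutation test, p = 0.00175). Of 34 mitochondrial rows tested 1 was called, the row ATMG00020, which rose from 1829 ± 261 to 2632 ± 247 CPM (log2 0.52 ± 0.09, adjusted p = 0.00404), and of 113 plastid rows 0 were called (3 at an unadjusted p under 0.05, 0 in DESeq2). In non-stem nuclei mitochondrial genes took 0.605% to 0.714% in ago59 and 0.400% to 0.497% in ago9. With organelle and ribosomal RNA genes left out of the fit, 82 features were called, 76 of them among the 77. That fit held no mitochondrial row, so ATMG00020 could not be called in it. Whether the mitochondrial share has a part in the changes above was not otherwise tested.

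Markers of other cell types were not called. Epidermal markers summed to 935 to 1770 CPM in ago59 and 1090 to 1810 CPM in ago9, with 0 of 6 called and none at 0 in a whole group. Stomatal-lineage markers summed to 26.5 to 77.0 and 52.8 to 105 CPM (0 of 4 tested called, median log2 −0.55), and vascular markers to 162 to 216 and 201 to 247 CPM (0 of 7 in edgeR, 1 in DESeq2, median −0.25). The lowest member of the vascular list by log2 change was ATHB8, a homeobox gene of early vascular cells, with 17.3 ± 9.16 against 49.2 ± 25.1 CPM (log2 −1.49, adjusted p = 0.0899). Root markers did not exceed 7.84 CPM in sum, and none could be tested. The mCherry reporter was at 35.8 ± 18.1 CPM in ago59 and 23.0 ± 10.0 CPM in ago9 (adjusted p = 0.819). In bulk nuclei, a change in RNA per nucleus and a change in the mix of nuclei cannot be told apart, and the part of these marker differences in the results above was not tested.

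Across promoters, the 5 motifs searched on both strands in 250 bases before the start were the 4 shown above and the evening element (AAAATATCT) of clock-controlled genes, all chosen with results known. Of 15114 tested protein-coding genes, 7.48% had a G-box, 13.3% a CRT/DRE core, 12.5% an I-box, 2.79% an RSRE and 2.45% an evening element. Among the 47 lower genes with a window, 7 had a G-box (14.9%), 6 a CRT/DRE core (12.8%), 7 an I-box (14.9%), 2 an RSRE (4.26%) and 1 an evening element (2.13%). Among the 24 higher genes, 2 had a G-box (8.33%), 1 a CRT/DRE core (4.17%) and 1 an I-box (4.17%), and 0 had either of the other motifs. These shares are descriptions without a test, and no motif says that a factor is bound.

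The same genotypes were compared in non-stem nuclei, in libraries that the comparison above did not use. With 3 ago59 and 4 ago9 libraries, 27 of 16693 features were called (0.162%), 9 higher (0.0539%) and 18 lower (0.108%). Groups this small left a gap in 1294 of the 16693 features (7.75%). All 77 features called in stem-cell nuclei were tested there, and 75 changed in the same direction, namely 50 of the 50 lower and 25 of the 27 higher ones. Their median log2 change in non-stem nuclei was −0.83 for the lower and 0.58 for the higher features, against 0.00368 for all features tested. The exceptions were AT4G35540 and AT1G76780, at −0.21 and −0.14 in non-stem nuclei. Of the 77, 14 were called in both populations in the same direction, which is 18.18% of the stem-cell calls and 51.85% of the non-stem calls. They include CT-BMY, RBCS3B, RBCS1B, RBCS2B, HSFC1, MRD1 and AT3TE58655 among the lower features and AT4G36850, LHB1B1 and LHCB1.1 among the higher ones. The labels do not say whether both populations were sorted from the same preparations.

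In non-stem nuclei CT-BMY was at 333 ± 12.8 CPM in ago59 (SD, n = 3) and 836 ± 169 CPM in ago9 (n = 4), a log2 change of −1.29 ± 0.18 (SE, adjusted p = 0.00201). RBCS3B was at 3697, 3732 and 3993 CPM in ago59 and at 6456 to 7831 CPM in ago9, a change of −0.88 ± 0.11 that equals the one in stem-cell nuclei. AT4G36850 stood between 208 and 209 CPM in the 3 ago59 libraries and between 13.8 and 49.0 CPM in the 4 ago9 libraries (log2 2.76 ± 0.33, adjusted p = 0.000638). CBF2 and LTI78 had log2 changes of −0.82 and −1.36 there without passing the test (adjusted p = 0.580 and 0.351). CP12-2, a small regulator of Calvin-cycle enzymes, was called in non-stem nuclei (log2 −1.33, adjusted p = 0.0473) and had −0.70 in stem-cell nuclei (adjusted p = 0.0672).

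Of the non-stem calls with the smallest adjusted p, 3 were rows at 0 in every library of 1 group. AT5G15948 was at 0 in the 3 ago59 libraries and at 68.7 to 313 CPM in ago9, which makes it at least 409.9-fold lower against a floor of 3 counts over the ago59 group. In stem-cell nuclei it ran from 0 to 104 CPM in ago59 and from 0 to 223 CPM in ago9. AT1TE72010 was at 33.3 to 44.0 CPM in ago59 and 0 in the 4 ago9 libraries, at least 148-fold higher, and AT1TE71905 was at 0 in ago59 and 22.1 to 68.5 CPM in ago9, at least 106-fold lower. In stem-cell nuclei both TE rows had libraries at 0 in each group, and they reached 43.96 and 45.85 CPM in others.

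Whether the change depends on the population was tested directly as an interaction. Of 19403 features 1 was called (0.00515%), and 955 had an unadjusted p under 0.05. It was MSL10, a mechanosensitive ion channel gene, at 29.0 ± 13.3 and 25.5 ± 12.8 CPM in ago59 and ago9 stem-cell nuclei and at 1.66 ± 0.553 and 30.0 ± 7.54 CPM in the non-stem nuclei (interaction log2 4.35 ± 0.72, SE, adjusted p = 0.0215). The call was lost in 7 of the 21 fits that left out 1 library, namely without ago59 stem-cell replicate 1 or 3, ago9 stem-cell replicate 1, any of the 3 ago59 non-stem libraries or ago9 non-stem replicate 1, with a highest adjusted p of 0.2102. None of the 77 features passed this test, and DESeq2 called 5 features in all.

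**Figure D4:**
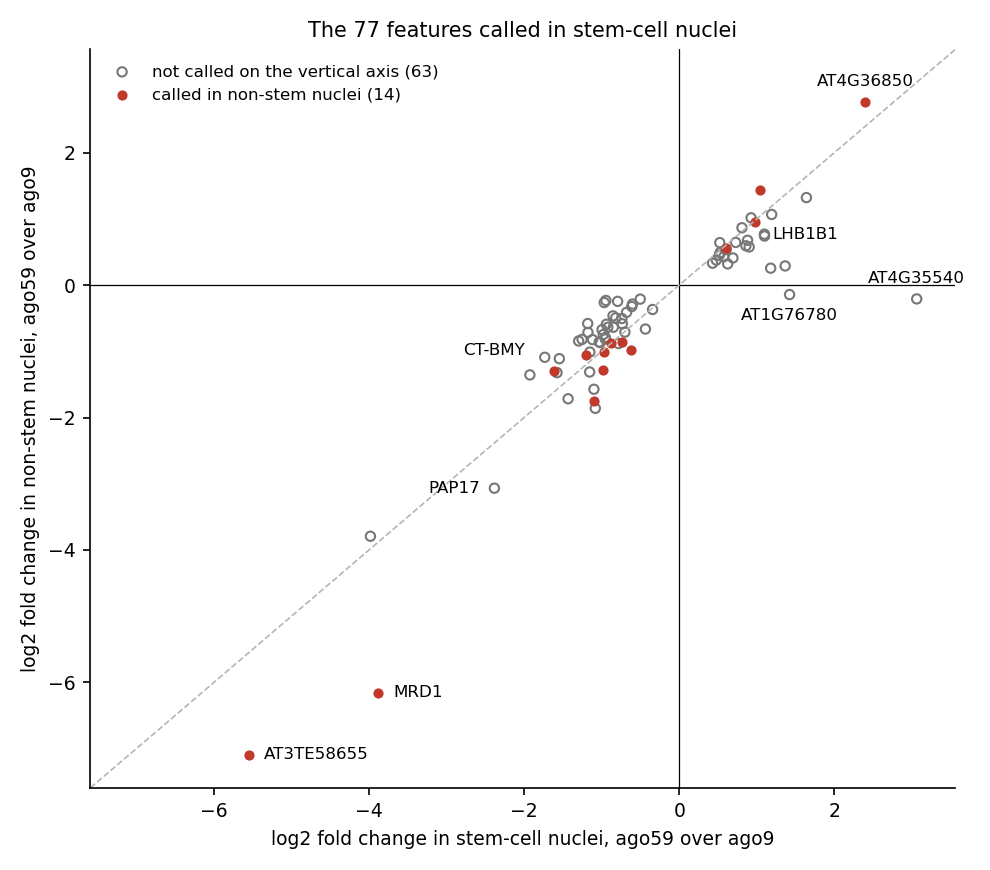
Log2 fold change of ago59 over ago9 in stem-cell nuclei (horizontal) and in non-stem nuclei (vertical) for the 77 features called in stem-cell nuclei. Red points were also called in non-stem nuclei, and the dashed line marks equal changes. 75 of the 77 points have the same sign on both axes.

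Loss of AGO5 with a working AGO9 was measured by ago5 against wild-type stem-cell nuclei, which are other libraries than those of ago59 and ago9. Its fit, however, held all 4 stem-cell groups, so the ago59 and ago9 libraries entered its filter, scaling and variance estimates. The 2 contrasts are thus not fully separate. With 4 groups fitted, ago5 against the wild type called 248 of 18633 features (1.33%), 84 higher (0.451%) and 164 lower (0.88%). Leaving out single ago59 or ago9 libraries gave 226 to 261 calls. Of the 77 features, 65 changed in the same direction there and 37 were called in the same direction, which is 48.05% of the 77 and 14.92% of the 248. Among the lower features, 48 of 50 had the same direction and 27 were called. CT-BMY was at 454 ± 112 CPM in ago5 (SD, n = 8) and 1354 ± 292 CPM in the wild type (n = 5), a log2 change of −1.71 ± 0.16 (SE, adjusted p = 4.11e-09), beside −1.61 between ago59 and ago9. RBCS3B was at 5744 ± 640 and 9945 ± 979 CPM (log2 −0.92), LHB1B1 at 1164 ± 206 and 505 ± 117 CPM (log2 1.09) and EXPA1 at 313 ± 45.4 and 154 ± 24.6 CPM (log2 0.91). For these 4 genes the 2 changes were of similar size, and the test of their difference gave an adjusted p of 0.9995 for each, which does not show that they are equal.

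The difference between the 2 changes was tested across all features, and 31 of 18633 were called (0.166%). In 24 the change was more positive in the ago9 background (0.129%), and in 7 it was more negative (0.0376%). These signs describe the changes and not the levels. RBCS1A, which fell from 22590 ± 1207 CPM in the wild type to 10390 ± 958 CPM in ago5, had 11240 ± 840 CPM in ago9 and 8844 ± 480 CPM in ago59 (difference of the log2 changes 0.91 ± 0.10, SE, adjusted p = 3.577e-07). BT2 fell from 166 ± 44.9 CPM in the wild type to 68.7 ± 28.1 CPM in ago5 and rose from 65.0 ± 22.1 CPM in ago9 to 139 ± 21.7 CPM in ago59 (difference 2.50 ± 0.32, adjusted p = 1.803e-05). Its relative BT1 was at 338 CPM in the wild type and at 44.2, 45.1 and 70.3 CPM in ago5, ago9 and ago59 (difference 3.70). GAPB and GAPA likewise fell in ago5 against the wild type and rose in ago59 against ago9, with differences of 1.21 and 1.00. RCA, at 3450, 2230, 2160 and 2440 CPM in the wild type, ago5, ago9 and ago59, differed by 0.94. In RBCS1A, BT2, BT1, GAPB and RCA the wild type had the highest mean of the 4 groups. In GAPA ago59 had the highest, at 1220 CPM beside 1120 CPM in the wild type.

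Of the 31, 4 belong to the Calvin-cycle list of 19 tested genes (GAPB, GAPA, RCA and the aldolase FBA2), where 16 differences were positive and the median was 0.50, beside −0.0353 for all features tested. The dark and sugar-starvation list had 2 of 16 (BT2 and TPS8) with a median of 1.07. In the other direction, RD22, a drought-response gene, was at 113 CPM in the wild type and at 401, 410 and 381 CPM in ago5, ago9 and ago59 (difference −1.80 ± 0.28, adjusted p = 0.00047), and ARR7, a cytokinin response regulator, at 43.4, 117, 110 and 89.4 CPM (difference −1.59). UBQ11 was at 1180, 1110, 1480 and 770 CPM in the same order, so that its fall was between ago9 and ago59 (difference −0.72, adjusted p = 0.0397). AT3TE58655 is called here as well (difference −7.18, adjusted p = 0.00311).

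**Figure D5:**
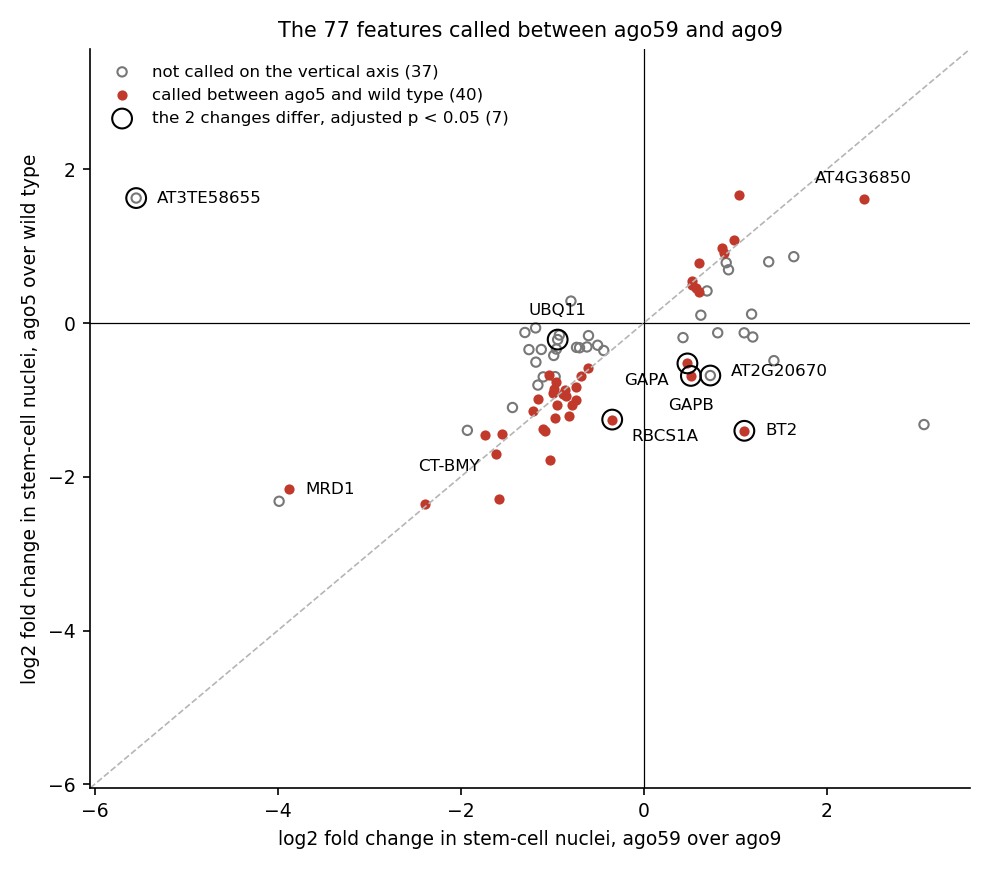
Log2 fold change between ago59 and ago9 (horizontal) and between ago5 and the wild type (vertical) in stem-cell nuclei, for the 77 features called between ago59 and ago9. Red points were called between ago5 and the wild type, rings mark the 7 features whose 2 changes differed, and the dashed line marks equal changes. 65 of the 77 points have the same sign on both axes.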

How the data were processed

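Nuclei were sorted by mCherry (stem cells) or DAPI (non-stem) and sequenced as Smart-seq3 libraries, per the labels. The authors deposited 1 table of expected counts for 60886 rows, 29696 genes and 31189 transposable elements. In it 7.58% of the values were not whole. The submitters' processing notes name DESeq2 and the build TAIR10, and the aligner and counter are not given in the sources used here. Of 67 columns, 7 could not be matched to a sample and were not used. Expected counts were rounded, and features were kept by edgeR's filterByExpr (minimum count 10, minimum total 15). They were scaled by TMM and tested with edgeR 4.0.16's quasi-likelihood test in R 4.3.3 with Benjamini-Hochberg adjustment over all features tested, at 0.05. The script was tested on simulated data. CPM is a rounded count over the library total, and SE is the absolute log2 change over the square root of F. Shares were compared with exact permutation tests (scipy 1.17.1). Alternatives were DESeq2 1.42.0, RLE factors, no filter, a replicate block, robust fitting, more groups in the fit, no organelle genes and each library left out. The fit without the 3 libraries that stood apart was added after seeing the data. Gene symbols and promoters come from RefSeq's TAIR10.1 annotation, which matched 28929 gene rows. It holds no transposable element rows, whose class was read from their identifiers. Depth was 1.411 M to 5.748 M counts in the 14 libraries, and intervals for single genes rest on the spread between them.

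The lists and members were chosen with earlier results of these data known. The genes named were AGO5, AGO9 and other AGO genes, up to 10 per direction that were called without overlap by smallest adjusted p, called list members, up to 4 members of highest mean CPM of lists with none called, and up to 5 called features of each other comparison. Members named beside these as contrasts, and those said to be picked later, were chosen after their values were seen.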

Additional observations from a re-analysis of the deposited data

Results flagged for a closer look

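In 5 of 72 groups of values tested, 1 library lay far from the others of its group, and chance flags about 1 in 20. AT1G35516 was lowest in ago9 replicate 7, at 17.2 CPM. RBCS1B was lowest in ago59 replicate 5, at 1070 CPM, and highest in ago9 replicate 6, at 3330 CPM, the latter a library that stood apart. AGO9 was highest in ago9 replicate 8, at 42.6 CPM, within a group that carries the ago9 mutation. The mitochondrial share was highest among ago9 libraries in replicate 7, at 0.539%.

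The change from ago9 to ago59 differed from that from the wild type to ago5 by 0.913 on the log2 scale for RBCS1A, 3.7 for BT1, 2.5 for BT2 and 0.942 for RCA. For AT1TE93275 the difference was −7.12, where the wild type held a mean of 0.0472 CPM and ago5, ago9 and ago59 had 14.0, 16.7 and 14.5 CPM. For MSL10 the change in stem-cell nuclei exceeded that in DAPI-sorted nuclei by 4.35 on the log2 scale.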

How the results depend on the processing

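The 77 calls between ago59 and ago9 in stem-cell nuclei became 154 without a low-count filter and 167 with DESeq2, of which 73 and 74 were among the 77. Leaving out 1 library gave 58 to 76, and leaving out the 3 that stood apart 53, of which 47 were among the 77. No filter and DESeq2 gave 469 and 515 for ago5 against the wild type (248), 169 and 91 for the difference between the backgrounds (31), 82 and 111 in non-stem nuclei (27), and 38 and 5 for the difference between populations (1). With 1 library left out these ranged over 188 to 261, 18 to 35, 12 to 18 and 0 to 2. The 18 came without wild-type replicate 5, and the 12 without ago59 non-stem replicate 2. The other low values in non-stem nuclei, 16, 15, 13 and 14, came without ago59 replicates 1 and 3 and ago9 replicates 2 and 4. The organelle share differed by 0.1476 percentage points when mitochondrial genes were taken alone. The cause of these shifts was not tested.

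Same-numbered libraries deviated from their group means with correlations of −0.0213 to 0.0164 in stem-cell and −0.0198 to 0.0107 in non-stem nuclei. Differently numbered stem-cell libraries had −0.0276 to 0.043. Values this near 0 throughout show no pairing by number, but cannot exclude preparations shared by number. With a replicate block, 34 features were called in stem-cell nuclei (30 of the 77), 16 in non-stem nuclei, and 0 for the difference between populations. Among the genes named by the rule, calls lost under the block were RBCS1A (adjusted p = 0.0535), CBF1 (0.0603), DELTA-TIP (0.0656), LTI78 (0.0741), LHCB1.2 (0.108), RVE2 (0.111), RAV2 (0.116), GAPB (0.170) and GAPA (0.197). Genes picked later were lost in at least 1 alternative too. Their highest adjusted p in any alternative was 0.170 for GBSS1, 0.099 for NIA1, 0.168 for ATBETAFRUCT4, 0.124 for UBQ10 and 0.199 for CHLM. MRD1, PAP17, VTC2, PSBP-1 and AT3G17800 stayed at or under 0.02507. The block left 1 lower and 0 higher of the 391 transposable element rows, 0 Calvin-cycle genes, and 2 lower genes on the cold and drought list. Robust fitting gave 3 higher and 1 lower Calvin-cycle genes, and the fit of all 4 stem-cell groups 2 and 1. CBF1 had an adjusted p of 0.104 with all 4 stem-cell groups in the fit, and AT1TE72010 0.108 with all 4 non-stem groups.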
